A study of Mus musculus with 6 samples.

Results

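The 7 genes described here encode receptors and ligands of the PDGF and KIT signalling systems. Pdgfra, Pdgfrb and Kit encode class III receptor tyrosine kinases, Pdgfa, Pdgfb and Pdgfc encode PDGF chains, and Kitl encodes KIT ligand (stem cell factor). They were taken by gene symbol and make up 7 of the 14005 genes listed. RNA was sequenced from FLK1+ mesodermal cells of mouse embryonic stem (ES) cell-derived embryoid bodies (EBs) at day 3.5, with 3 wild-type (WT) and 3 Scl-/- libraries. Each genotype was 1 ES cell line, the J1 line for WT and a line lacking functional Scl (Tal1) for Scl-/-, so line and genotype cannot be told apart. Both groups were grown in the same serum-containing differentiation and sorted with an antibody to FLK1, and the libraries of each group came from 3 independent differentiations. Libraries with the same replicate number were treated as pairs, since their values deviated together from the group means.

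Class III receptors have immunoglobulin-like domains outside the cell and a split kinase domain inside it. They pair when a dimeric ligand binds, phosphorylate each other and recruit adaptors, PI3 kinase, PLC gamma and STAT proteins. In gastrulating mesoderm, PDGFRA marks the cells that give rise to paraxial and cardiac lineages. KIT marks blood precursors, and Scl is a transcription factor that the blood lineage needs. Day 3.5 FLK1+ cells hold precursors of these lineages together.

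The values are CPM, read counts scaled to the size of each library and TMM-normalized by the authors, and a log2 fold change is Scl-/- minus WT on log2(CPM + 0.5), which understates the change of low genes. Calls were made with limma and needed both an adjusted p (Benjamini-Hochberg over 13991 tested genes) below 0.05 and a log2 fold change beyond 0.48 in either direction. The main model had genotype as its only term. A second model added the replicate number as a block, which leaves the fold change as it is and removes the spread between replicate numbers from its standard error. Values after ± are SDs (n = 3 libraries per group). The libraries held 38623641 to 47621120 reads on listed genes, where 3 reads are 0.0615 to 0.0784 CPM, an allowance for counting error only. Tal1 fell from 182 to 306 CPM in WT to 5.68 to 9.35 CPM in Scl-/- (log2 fold change -5.14, limma adjusted p = 6.71e-04), which matches the genotype labels. Kdr, which encodes the sorted receptor FLK1, had 832 to 868 CPM in WT and 724 to 810 CPM in Scl-/- (-0.15, limma adjusted p = 0.456, 0.125 with the block) and was not called, although the groups did not overlap.

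In Scl-/- cells Pdgfra was higher and Kit was lower than in WT of the same replicate number, in 3 of 3 pairs for both genes. Without the block, 0 of the 7 genes were called, against a background of 2.36% of all tested genes (1.57% lower and 0.793% higher in Scl-/-), and only for Pdgfrb was the unadjusted p below 0.05. With the block, 4 of the 7 were called, against a background of 12.6%. These were Pdgfra and Pdgfrb, higher in Scl-/- (background 6.04%), and Kit and Pdgfb, lower in Scl-/- (background 6.6%). Over the 7 genes the median of the log2 fold changes was 0.07, against 0.01 over all tested genes. The sign was the same in all 3 pairs for 5 of the 7 genes, against 56.2% of all tested genes, and the groups did not overlap for 1 of the 7, against 21.6%.

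Pdgfra and Kit are neighbours on chromosome 5. The stretches of DNA before their starts are shown because these neighbouring receptor genes, called only with the replicate block, were called in opposite directions. Both come from RefSeq promoters (GRCm38.p6) that match the plus strand of mm9 chromosome 5 once, the only sequence they were matched to. Capitals mark the motifs searched on both strands, GATA, the E-box CANNTG and the GC box GGGCGG. SCL binds E-boxes together with E proteins, and its GATA factor partners bind GATA. No match overlapped another.
Pdgfra, mm9 chr5:75548026-75548275, plus strand: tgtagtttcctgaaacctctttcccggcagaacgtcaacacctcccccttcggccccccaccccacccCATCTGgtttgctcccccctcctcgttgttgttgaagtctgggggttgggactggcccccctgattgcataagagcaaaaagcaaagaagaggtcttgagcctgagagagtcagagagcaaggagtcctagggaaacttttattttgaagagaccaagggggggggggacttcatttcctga
Kit, mm9 chr5:75970762-75970940, plus strand: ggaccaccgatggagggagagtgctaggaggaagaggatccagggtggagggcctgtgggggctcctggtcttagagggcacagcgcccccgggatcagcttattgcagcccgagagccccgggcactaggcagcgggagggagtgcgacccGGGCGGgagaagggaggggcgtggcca
The Pdgfra stretch of 250 bases held 1 E-box (CATCTG), no GATA and no GC box. Kit was searched over 250 bases up to position 75971011 and is printed to 75970940, just before the first annotated exon. Its window held no GATA, no E-box and 1 GC box. RefSeq had 2 starts for Kit, and only the window of the first one listed was searched. Of 32851 RefSeq promoter windows of 250 bases, 53.6% held GATA, 66.2% held CANNTG and 32.7% held GGGCGG. The GC content was 54.4% for Pdgfra and 70.8% for Kit. A match is a description of the letters in these windows only, and promoters matched for 5 of the 7 genes (all but Pdgfrb and Pdgfb).

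Pdgfra (ENSMUSG00000029231) lies on mm9 chr5:75548316-75594229, plus strand, and encodes PDGF receptor alpha, which binds all the PDGF chains described here. WT replicates 1, 2 and 3 had 46.6, 121 and 63.4 CPM, and Scl-/- replicates 1, 2 and 3 had 75.7, 191 and 156 CPM. Replicate 2 was the highest library of both groups and replicate 1 the lowest of both, and the groups overlapped because WT replicate 2 lay above Scl-/- replicate 1. The mean was 76.8 ± 38.8 CPM in WT and 141 ± 59.3 CPM in Scl-/-. Within pairs, Scl-/- was higher by 0.69, 0.67 and 1.29 on the log2 scale. The log2 fold change was 0.88 (SE 0.43, 95% interval -0.11 to 1.88, limma adjusted p = 0.345), and with the block its interval was 0.61 to 1.16 (limma adjusted p = 0.00189). Without WT replicate 1 the log2 fold change was 0.58. The spread of WT libraries around Pdgfra, 1.36 on the log2 scale from lowest to highest, was thus wider than the difference between genotypes, while all 3 differences within pairs pointed the same way. Leaving out each pair in turn, with the block, kept the call each time (0.68 to 0.99, limma adjusted p = 1.47e-04 to 0.0112). Blocked fits without a pair, here and for the other genes below, hold 2 pairs and leave 1 residual degree of freedom per gene. Their p-values thus lean mostly on the variance that limma shares across genes. In bulk samples such as these, fewer cells of a type and less RNA per cell cannot be told apart.

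Kit (ENSMUSG00000005672, mm9 chr5:75970941-76052747, plus strand) encodes the receptor for KIT ligand. It was measured at 57.0, 27.5 and 57.9 CPM in WT replicates 1 to 3 and at 37.0, 15.9 and 31.0 CPM in Scl-/- replicates 1 to 3. Replicate 2 was the lowest library of both groups, where it had been the highest for Pdgfra, and WT replicate 2 lay below 2 of the 3 Scl-/- libraries, so the groups overlapped. The mean was 47.5 ± 17.3 CPM in WT and 28.0 ± 10.9 CPM in Scl-/-. The pairs differed by -0.62, -0.77 and -0.89 on the log2 scale, a narrower spread than that of the Pdgfra pairs. The log2 fold change was -0.76 (SE 0.38, 95% interval -1.65 to 0.13, limma adjusted p = 0.366), and with the block the interval was -0.95 to -0.57 (limma adjusted p = 7.87e-04). Without Scl-/- replicate 2 the log2 fold change was -0.40. Kit stayed called with the block without any 1 of the 3 pairs (-0.83 to -0.69, limma adjusted p = 1.23e-04 to 0.0121).

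Pdgfrb (ENSMUSG00000024620, mm9 chr18:61204804-61244715, plus strand) encodes PDGF receptor beta, the main PDGFB receptor and a marker of mural cells and other mesenchyme. The WT libraries were close together, at 23.0, 22.8 and 23.4 CPM, and the Scl-/- libraries had 41.8, 27.0 and 31.5 CPM. All 3 Scl-/- libraries lay above all 3 WT libraries, which no other gene of the 7 did, and Scl-/- replicate 1 was the highest. The log2 fold change was 0.50 (SE 0.17, 95% interval 0.11 to 0.89, unadjusted p = 0.0184 and adjusted p = 0.18 by limma), and with the block the adjusted p was 0.0199 (interval 0.22 to 0.78). Without Scl-/- replicate 1 the log2 fold change was 0.33. The pairs differed by 0.85, 0.24 and 0.42. With the block, Pdgfrb remained called only without replicate 2 (0.63, limma adjusted p = 0.0407). Without replicate 1 the value was 0.33 (limma adjusted p = 0.0371), under the fold threshold, and without replicate 3 it was 0.54 (limma adjusted p = 0.0749).

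**Figure D1:**
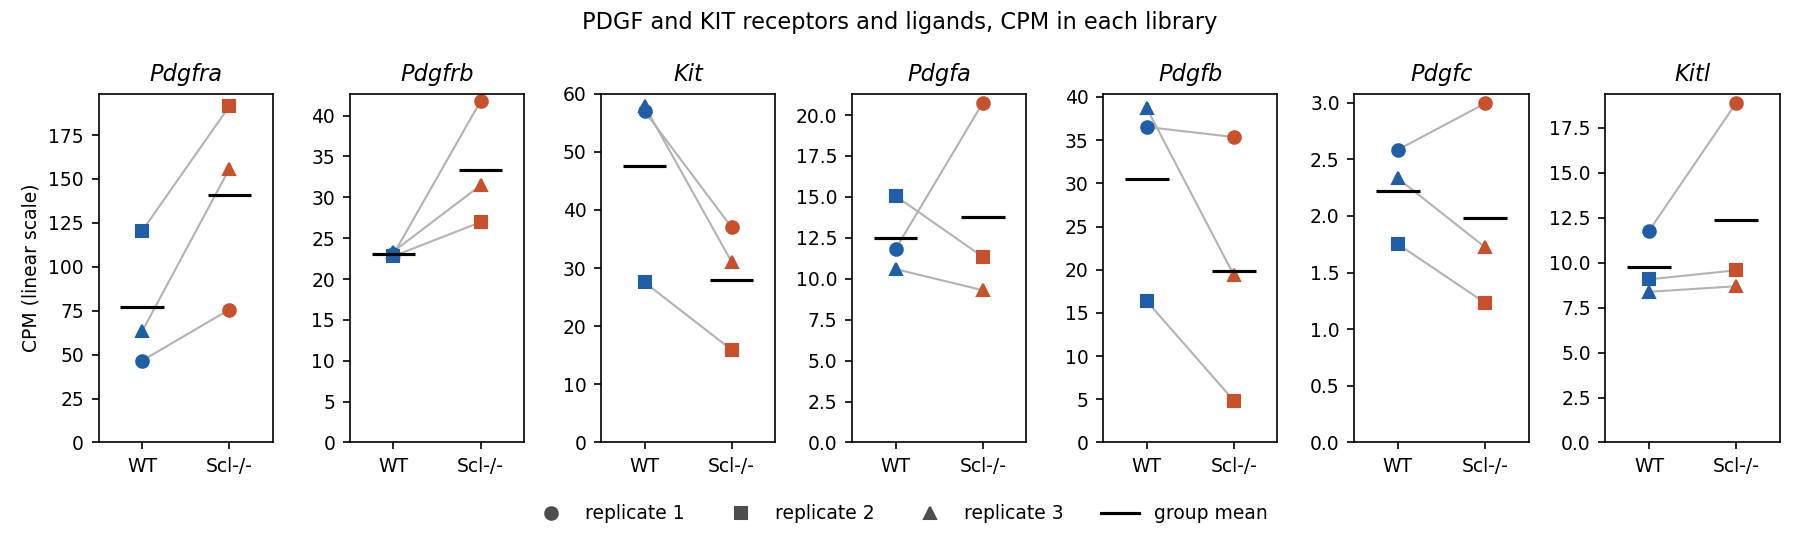
CPM of the 7 genes in each WT and Scl-/- library, on linear axes from 0; points are libraries, lines join libraries of the same replicate number and horizontal bars give the group means. The Pdgfra lines all go up and the Kit lines all go down from WT to Scl-/-, while the pairs of both genes lie at different levels, and only for Pdgfrb are the groups separate.

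Among the ligands, Pdgfb was the one called with the block. Pdgfb (ENSMUSG00000000489, mm9 chr15:79826330-79845238, minus strand) encodes the chain that endothelial cells make to recruit mural cells, and its dimer binds both PDGF receptors. WT replicates 1 to 3 gave 36.5, 16.4 and 38.7 CPM, and the Scl-/- replicates gave 35.4, 4.83 and 19.3 CPM. As for Kit, replicate 2 was the lowest of both groups, and the groups overlapped. The pair differences were uneven: -0.05 for replicate 1, -1.66 for replicate 2 and -0.98 for replicate 3. The log2 fold change was -0.90 (SE 0.67, 95% interval -2.47 to 0.67, limma adjusted p = 0.581), with a blocked interval of -1.47 to -0.32 (limma adjusted p = 0.0353). The value rested on single libraries, at -0.12 without Scl-/- replicate 2 and -1.50 without Scl-/- replicate 1. With the block it remained called only without replicate 1 (-1.32, limma adjusted p = 1.07e-04). Without replicate 2 the blocked value was -0.51 (limma adjusted p = 0.196) and without replicate 3 it was -0.85 (limma adjusted p = 0.158).

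Pdgfa (ENSMUSG00000025856, mm9 chr5:139451968-139473324, minus strand) encodes the chain whose dimer binds PDGF receptor alpha alone. Its WT libraries had 11.8, 15.1 and 10.6 CPM and its Scl-/- libraries 20.7, 11.3 and 9.30 CPM. Scl-/- replicate 1 was the highest of the 6 libraries and Scl-/- replicate 3 the lowest, so the Scl-/- values bracketed the WT values. No difference was called (0.07, 95% interval -0.61 to 0.76, limma adjusted p = 0.958; with the block, interval -0.41 to 0.55 and limma adjusted p = 0.843), and the sign turned to -0.26 without Scl-/- replicate 1 and to -0.035 without WT replicate 3. Pdgfa overlaps the genes Gm17247 and 6330403L08Rik on the other strand, and whether the reads were counted by strand is not given in the sources used here.

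Pdgfc (ENSMUSG00000028019, mm9 chr3:80840338-81017962, plus strand) encodes a chain that is secreted in a latent form and cut by proteases such as tissue plasminogen activator before it binds. It was the lowest of the 7 genes, at 2.58, 1.75 and 2.33 CPM in WT and 2.99, 1.23 and 1.72 CPM in Scl-/-, or 51 to 146 reads per library. The groups overlapped, with the highest and the lowest libraries both in Scl-/-. The log2 fold change of -0.18 was not called (95% interval -0.86 to 0.49, limma adjusted p = 0.846; with the block, interval -0.59 to 0.23 and limma adjusted p = 0.509), and it was 0.046 without Scl-/- replicate 2. Pdgfc overlaps Gm16000 on the other strand.

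Kitl (ENSMUSG00000019966, mm9 chr10:99478264-99563047, plus strand) encodes KIT ligand, made in membrane-bound and soluble forms. The WT libraries had 11.8, 9.07 and 8.38 CPM and the Scl-/- libraries 18.9, 9.57 and 8.69 CPM. Replicates 2 and 3 hardly differed within their pairs (0.07 and 0.05 on the log2 scale), and replicate 1 differed by 0.66. Kitl was not called (0.26, 95% interval -0.43 to 0.95, limma adjusted p = 0.757; with the block, interval -0.07 to 0.59 and limma adjusted p = 0.235), and without Scl-/- replicate 1 the value was -0.076. Scl-/- replicate 1 was the highest Scl-/- library for Pdgfrb, Kit and all 4 ligands, and the lowest for Pdgfra.

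**Figure D2:**
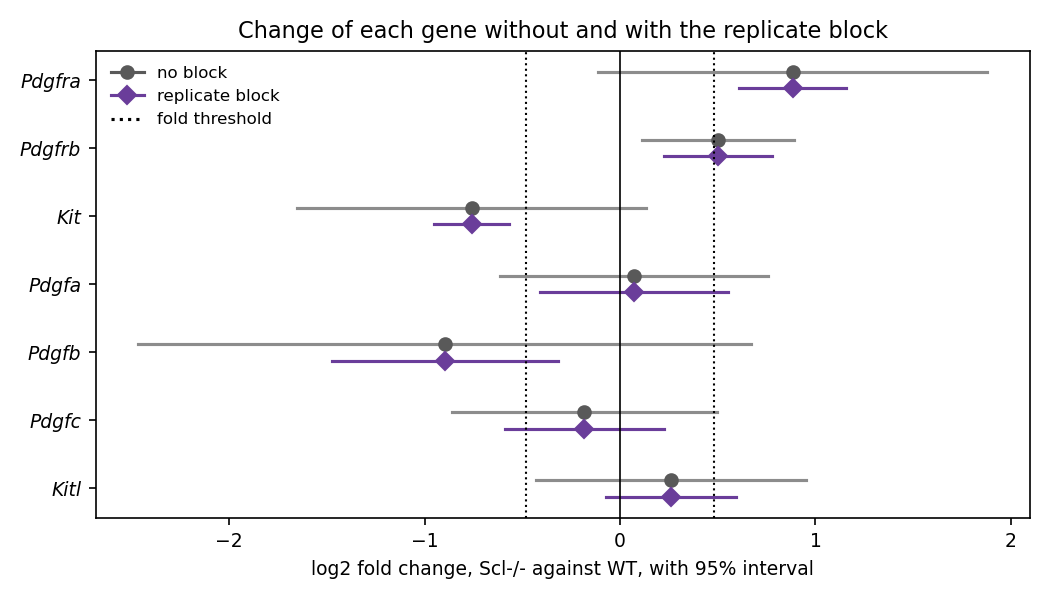
Log2 fold change (Scl-/- minus WT, log2(CPM + 0.5)) of the 7 genes with 95% limma intervals without and with the replicate block; dotted lines mark the fold threshold of 0.48. Without the block only the Pdgfrb interval leaves out 0, and with it those of Pdgfra, Pdgfrb, Kit and Pdgfb do.

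The opposite course of Pdgfra and Kit was also read within each library, as the log2 ratio of their CPM values (+ 0.5 each), which does not depend on the scaling between libraries. It was -0.29, 2.11 and 0.13 in WT and 1.02, 3.55 and 2.31 in Scl-/- replicates 1 to 3. The ratio was higher in Scl-/- in 3 of 3 pairs, by 1.31, 1.44 and 2.18, and the groups overlapped because WT replicate 2 exceeded Scl-/- replicate 1. With Pdgfra higher and Kit lower in every pair, the direction of the ratio was fixed in advance and is not a separate result. The means were 0.65 ± 1.28 in WT and 2.29 ± 1.26 in Scl-/-, a difference of 1.64 (exact two-sided permutation test, p = 0.2, adjusted p = 0.3 over 3 ratios), and of 1.02 without Scl-/- replicate 2. With 3 libraries against 3 this test cannot go below 0.1, and the smallest p that 3 pairs allow is 0.25. Against Kdr, the Pdgfra ratio differed by 1.04 (exact permutation p = 0.2; pairs 0.96, 0.76 and 1.39) and the Kit ratio by -0.61 (exact permutation p = 0.3; pairs -0.35, -0.67 and -0.79). Relative to Kdr RNA, Pdgfra was higher and Kit lower in Scl-/- in all 3 pairs. Kdr itself was lower in all 3 pairs (-0.26, -0.10 and -0.10), so the direction of the Pdgfra to Kdr ratio was fixed as well. The 3 ratios share genes and are not separate results.

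**Figure D3:**
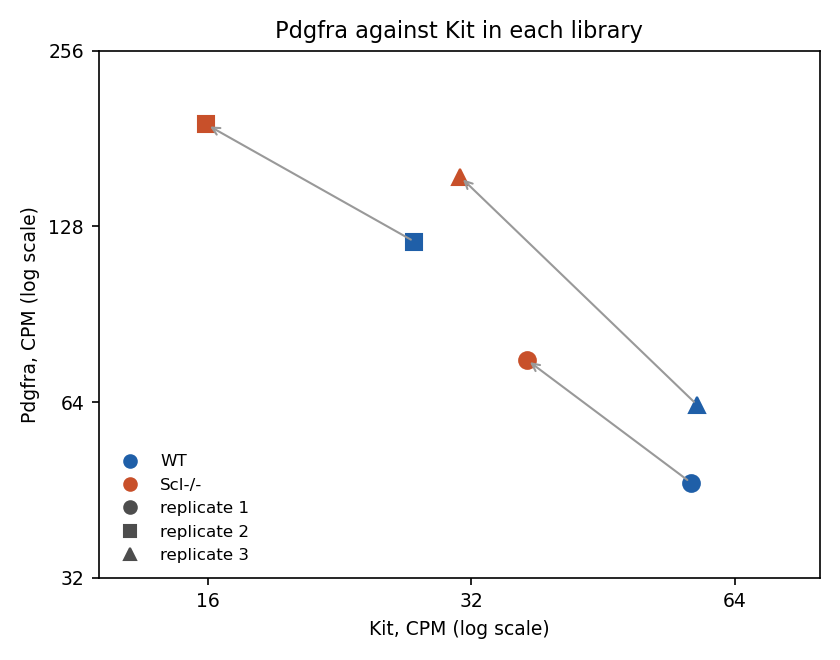
Pdgfra against Kit, both in CPM on log axes, with 1 point per library and arrows from WT to Scl-/- of the same replicate number. All 3 arrows point to lower Kit and higher Pdgfra, and replicate 2 of both groups has the lowest Kit and highest Pdgfra of its group.

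Replicate 2 of both groups stood apart for some of the 7 genes. It lay 0.98 above the mean of the other libraries for Pdgfra on the log2 scale, while this difference was -1.06 for Kit, -1.75 for Pdgfb and -0.22 for Pdgfrb. For Kdr RNA the same difference was -0.02. The cells were sorted on FLK1 protein, which these RNA values do not measure, and why replicate 2 stood apart was not tested. Over the 6 libraries, which share replicate numbers and genotypes, the log2 values of Kit and Pdgfb had a Pearson r of 0.94, Kit and Pdgfra of -0.92, Pdgfb and Pdgfra of -0.87, Pdgfb and Pdgfc of 0.92, and Pdgfa and Kitl of 0.82. These r values are descriptions over 6 points.

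Levels of different genes were compared as CPM per kilobase of annotated exon. In WT the order was Pdgfra (11.4 ± 5.75), Pdgfb (10.5 ± 4.22), Kit (8.14 ± 2.96), Pdgfrb (4.21 ± 0.0525), Pdgfa (4.0 ± 0.74), Kitl (1.67 ± 0.306) and Pdgfc (0.437 ± 0.0839). The ranges of neighbours among the top 3 overlapped, as did those of Pdgfrb and Pdgfa, although Pdgfb was above Kit within each of the 3 WT libraries, while Kit and Pdgfrb, Pdgfa and Kitl, and Kitl and Pdgfc had ranges that did not overlap. In Scl-/- the order was Pdgfra (20.9 ± 8.80), Pdgfb (6.80 ± 5.23), Pdgfrb (6.09 ± 1.38), Kit (4.80 ± 1.86), Pdgfa (4.42 ± 1.96), Kitl (2.12 ± 0.966) and Pdgfc (0.390 ± 0.178). Of these neighbours only Kitl and Pdgfc had ranges apart, although Pdgfrb was above Kit, and Pdgfa above Kitl, within each of the 3 Scl-/- libraries. Per kilobase, Pdgfra was 0.708, 3.79 and 0.947 times Kit in the WT libraries and 1.77, 10.4 and 4.34 times Kit in the Scl-/- libraries, so Kit was the higher of the pair in 2 WT libraries and in no Scl-/- library. The level of Kitl per kilobase was 0.206, 0.328 and 0.144 times that of Kit in WT and 0.509, 0.60 and 0.279 times in Scl-/-, below its receptor in all 6 libraries. Pdgfb was 2.98, 1.35 and 3.11 times Pdgfrb in WT and 1.59, 0.337 and 1.15 times in Scl-/-.

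Pdgfra, Kit and Kdr stand in a row on chromosome 5, with 376.711 kb between Pdgfra and Kit and 276.104 kb between Kit and Kdr. Within 1 Mb of Kit, 11 genes were tested, and Pdgfra and Kit were the only ones called with the block. The log2 fold changes of the others lay between -0.22 (Srd5a3) and 0.16 (Chic2). Fip1l1 had -0.19, Lnx1 0.01, Tmem165 -0.01, Clock -0.08, Exoc1 0.10 and Cep135 0.06. The chromosomes that carry the 7 genes had median log2 fold changes from -0.01 to 0.01.

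**Figure D4:**
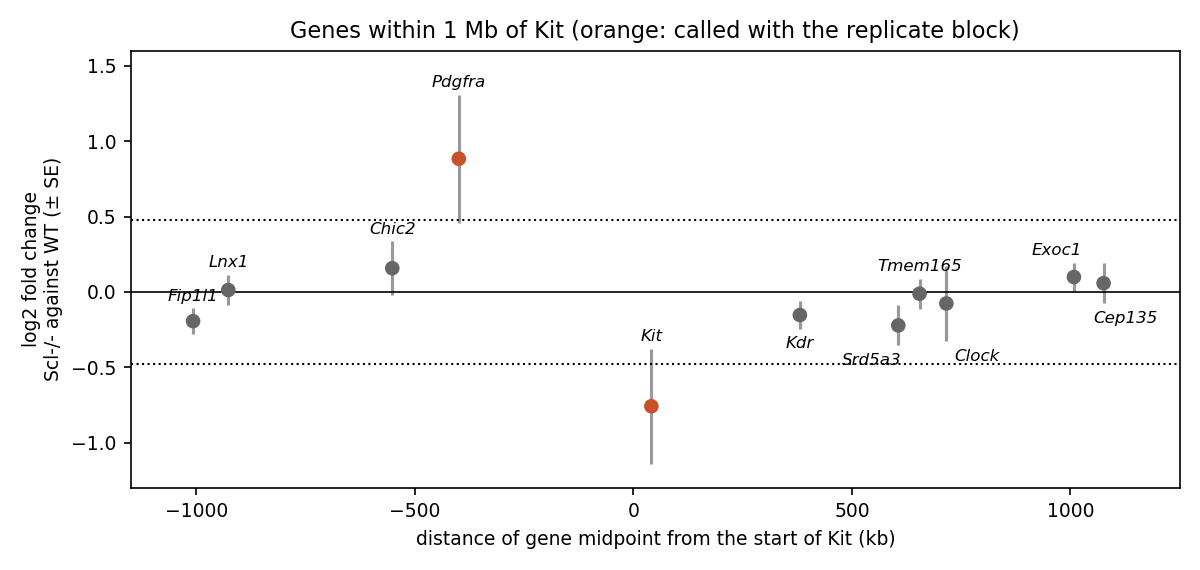
Log2 fold change (Scl-/- minus WT) of the tested genes within 1 Mb of Kit, by distance of the gene's midpoint from the start of Kit in kb, with bars of 1 SE from limma without the block; orange marks genes called with it. Pdgfra at 0.88 and Kit at -0.76 stand apart, and the other genes lie between -0.22 and 0.16.

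For each of the 7 genes, the 3 genes with the most similar course over the 6 libraries (Pearson r of log2 values, of 11716 genes averaging 5 CPM or more) were listed as a description. Pdgfra went most closely with Lrrc56 (r = 0.998), the homeobox gene Irx3 (0.998) and Prmt8 (0.996). For Kit they were Ssfa2 (0.997), Erlin1 (0.996) and Wdr91 (0.992), for Pdgfrb Pcdh18 (0.991), Arhgap36 (0.987) and Zfp668 (0.987), and for Pdgfb Ppcdc (0.992), Hdac7 (0.991) and Pwwp2b (0.988). Pdgfa had Irf2bp2 (0.995), Gm16933 (0.984) and ENSMUSG00000086985 (0.97), Pdgfc had Zfp961 (0.993), Zfp617 (0.990) and Stx1a (0.987), and Kitl had Aasdh (0.997), Araf (0.994) and Ccdc127 (0.992). All 7 genes had such near copies among the genes screened, over only 6 points.

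Around the receptors, 98 genes of the signalling pathway were listed and 93 tested. Without the block 5 were called, all lower in Scl-/-, and with it 9 were lower and 6 higher, beside the backgrounds of 2.36% and 12.6% above. The median log2 fold change over the 93 was -0.08. Of the other class III receptors and ligands, 3 of 6 were tested and Flt3l, which encodes the FLT3 ligand, fell with the block (-1.13, limma adjusted p = 0.004). Csf1r had 0.41 (limma adjusted p = 0.0491 with the block), under the fold threshold. Of 12 genes for proteases and binding proteins that process the ligands, 0 were called without the block and 3 rose with it. These were the protease genes Mmp9 (0.97, limma adjusted p = 0.00137), Pcsk5 (0.69, limma adjusted p = 0.00533) and St14 (0.62, limma adjusted p = 0.0114).

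Of 42 tested adaptors and signal transducers, 5 fell without the block and 0 rose, with a list median of -0.11. Stat5a, a transcription factor that KIT activates, had 26.5, 15 and 29.5 CPM in WT and 6.89, 6.24 and 8.14 CPM in Scl-/- (-1.62, limma adjusted p = 0.0244). Its close relative Stat5b had 83.0, 54.3 and 87.2 CPM in WT and 24.9, 23.7 and 26.9 CPM in Scl-/- (-1.52, limma adjusted p = 0.01). For both STAT5 genes the groups did not overlap and WT replicate 2 was the lowest WT library, as for Kit. Stat3 had 109, 105 and 116 CPM in WT and 63.1, 66.8 and 76.3 CPM in Scl-/- (-0.68, limma adjusted p = 0.0223). Stat5b, Stat5a and Stat3 lie next to each other within 158.81 kb on chromosome 11, with Stat5a and Stat3 overlapping at their ends, so they are not 3 separate places in the genome. Their direction was opposite to the median of chromosome 11, which was 0.31 over 1211 genes. Gab2, an adaptor downstream of KIT, had 15.2, 9.36 and 10.6 CPM in WT and 5.43, 2.30 and 2.88 CPM in Scl-/- (-1.65, limma adjusted p = 0.044). Grb10, an imprinted adaptor on chromosome 11 that also binds KIT, had 679, 576 and 601 CPM in WT and 3.14, 4.50 and 3.20 CPM in Scl-/- (-7.25, limma adjusted p = 2.12e-06). This was the widest difference of the listed pathway genes and of all 13991 tested genes, wider than that of Tal1 (-5.14). Each genotype was 1 ES cell line, so a difference between the lines and an effect of the genotype cannot be told apart here. With the block, the kinase genes Yes1 (0.53, limma adjusted p = 0.00217) and Jak2 (0.52, limma adjusted p = 0.00446) rose.

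Of 20 tested negative regulators of the receptors, 0 were called without the block, and with it 1, Dok2, rose (0.52, limma adjusted p = 0.0305), with a list median of -0.02. Of 16 immediate early genes, which growth factor receptors switch on within minutes, 14 had values below 0 (median -0.36), against 6747 of all 13991 tested genes. The sign was the same in all 3 pairs for 7 of the 16, against 56.2% of all tested genes. The groups did not overlap for 2 of the 16, against 21.6%. Without the block 0 were called and with it 2 fell, Jun (-1.18, limma adjusted p = 0.023) and Zfp36 (-0.53, limma adjusted p = 0.0364). WT replicate 1 was far above the other 5 libraries for Fos, at 253 CPM against 26.2 to 128 CPM. It was also far above them for Jun, at 371 CPM against 62.7 to 194 CPM. Jun was lower in Scl-/- than in WT in each pair (73.9 against 371, 124 against 194 and 62.7 against 93.1 CPM). The part of WT replicate 1 in this list was not tested. The genes Pdgfd, Il34, Flt3, Vav1 and Cblc were on the lists but had no values under these symbols among the 14005 genes, so they were not tested.

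**Figure D5:**
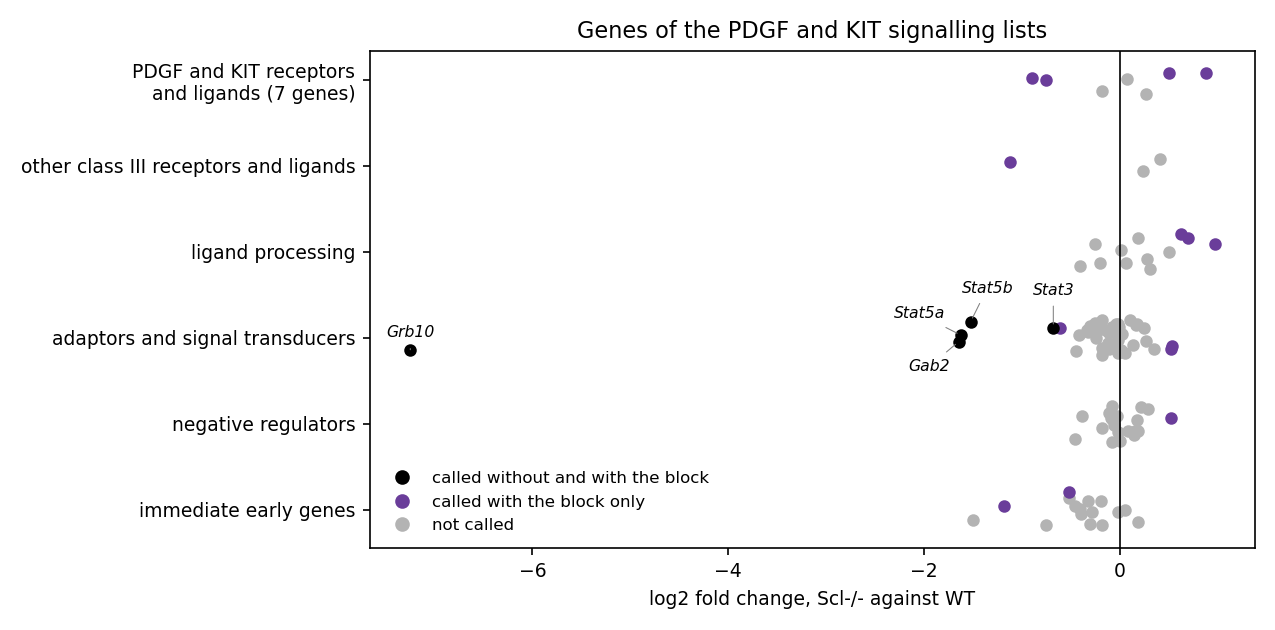
Log2 fold change (Scl-/- minus WT) of each tested gene in the 5 pathway lists and the 7 receptor and ligand genes, with 1 point per gene; black marks genes called without and with the block, purple those called with it only and grey those not called. Points are spread vertically for legibility. Most points lie near 0, and Grb10 at -7.25, Gab2, Stat5a, Stat5b and Stat3 are the genes called without the block.

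Markers of the cell types that the sort could hold were set beside the 7 genes. Over all tested genes, 2.36% were called without the block and 12.6% with it. In each list below other than the blood and endothelial one, 0 markers were called without the block. Of 14 blood and endothelial markers, 10 fell and 1 rose (Etv2, which acts upstream of Scl) without the block, and 13 fell and 1 rose with it. Their summed level was 916 to 1525 CPM in WT and 392 to 552 CPM in Scl-/-. Tal1, the gene disrupted in Scl-/-, is on this list. When Tal1 was left out, 9 of 13 fell without the block, and the sums were 734 to 1219 CPM in WT and 387 to 546 CPM in Scl-/-. Of 14 tested cardiac and paraxial mesoderm markers, 0 were called without the block and 8 rose with it, among them Mesp1 (1.40) and Tbx6 (0.90), with sums of 770 to 970 CPM in WT and 959 to 1157 CPM in Scl-/-. The other 6 were not called with the block, and 5 of the 14 had values below 0. These were Hand1, the most abundant of the list (-0.45, limma adjusted p = 0.0606 with the block), Tcf15 (-0.70), Foxc2 (-0.23), Nkx2-5 (-0.21) and Hand2 (-0.056). Of 6 tested mural and smooth muscle markers, 2 rose with the block (Tagln and Cnn1) and 1 fell (Des), with sums of 310 to 326 CPM in WT and 276 to 346 CPM in Scl-/-. Of 7 tested pluripotent and germ cell markers, 1 fell and 3 rose with the block, and the sums were 95.7 to 161 CPM in WT and 94.9 to 235 CPM in Scl-/-. Of 3 tested endoderm markers, Sox7 (-2.37) and Sox17 (-2.10), which endothelial precursors also express, fell with the block, and sums were 83.4 to 162 CPM in WT and 30.7 to 57.0 CPM in Scl-/-. The other 7 listed endoderm markers, Foxa2 and Afp among them, had no values under their symbols and were not tested. Of 3 tested neurectoderm markers, 2 rose with the block, Otx2 and Nes (sums 69.7 to 122 CPM in WT and 130 to 173 CPM in Scl-/-). Mast cells and melanoblasts also carry KIT. Of their 7 listed markers 3 were tested, and Cpa3 and Dct were among those without values. The 3 tested markers summed to 5.27 to 6.90 CPM in WT and 6.31 to 7.69 CPM in Scl-/-. Of these, Pmel rose with the block (0.60, limma adjusted p = 0.0353), and its groups did not overlap. The part of these cell types in the values of the 7 genes was not tested.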

How the data were processed

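RNA-seq was analysed from 6 libraries, 3 WT and 3 Scl-/-, grouped by genotype in the sample labels. The authors aligned reads to mm9 with TopHat2 2.0.8b, removed duplicate read pairs, filtered on mapping quality with SAMtools 0.1.19 and deposited CPM values after TMM normalization in edgeR. The read counter, gene annotation and strand setting are not given in the sources used here. Each CPM value was a whole multiple of 1 step per library (within 0.05 reads for 100% of values), which gave the depths and reads quoted. Because low values are few in the table, whole reads could not be accepted as recovered and no count model was run. Duplicate removal can limit the values of abundant genes.

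The filter was 0.5 CPM or more in 3 or more libraries (13991 genes passed and 14 did not), and log2(CPM + 0.5) was fitted with limma 3.58.1 in R 4.3.3 (lmFit, eBayes with an intensity trend). Adjusted p-values are Benjamini-Hochberg values over all tested genes. Libraries with the same replicate number were taken as pairs. The study's design text gives 3 independent differentiations with cells of both genotypes but does not say that a number marks a shared one, so the pairing rests on the values. Deviations from the group means correlated at 0.59, 0.76 and 0.75 within numbers 1 to 3 and at -0.62 to -0.10 between numbers. The deviations of a gene sum to 0 in each group, so values above 0 within numbers push those between numbers below 0. The values between numbers therefore add no separate support for the pairing. Ratios were compared by exact permutation tests in SciPy 1.17.1, with plots made in Matplotlib 3.10.9.

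The genes, gene lists, tests and rules were chosen with earlier results of these data known. Named genes are the 7 genes, the pathway genes called with or without the block (1 of them is not reported here), the tested genes within 1 Mb of Kit, the 3 most similar genes of each, and markers. Csf1r, Fos and the individual markers named, other than those highest in their list, were chosen after their values were seen. Alternatives were a pseudocount of 0.1 or 1, keeping every gene, keeping those averaging 2 CPM or more, median-ratio rescaling, no intensity trend, other fold thresholds, the block and each library left out. Leaving out replicate 2, and each pair with the block, was added after seeing the data. Positions are from GENCODE on mm9, which held all 14005 genes by identifier, and level per kilobase used the merged exons of each gene.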

Additional observations from a re-analysis of the deposited data

How the results depend on the processing

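The 7 genes gave 0 calls without the replicate block under each alternative that kept genotype as the only term, each left-out library included. With the block there were 4 calls (Pdgfra 0.88, Pdgfrb 0.50, Pdgfb -0.90 and Kit -0.76), and with the block and without replicate 1, 2 or 3 there were 3, 3 and 2. In those 3 fits Pdgfra was called at 0.98, 0.99 and 0.68 and Kit at -0.83, -0.75 and -0.69, Pdgfrb without replicate 2 (0.63) and Pdgfb without replicate 1 (-1.32). The sign turned for Pdgfa without WT replicate 3 (-0.035), without Scl-/- replicate 1 (-0.26) and with the block without replicate 1 (-0.29), for Pdgfc without Scl-/- replicate 2 (0.046) and for Kitl without Scl-/- replicate 1 (-0.076), and for no other gene of the 7. With 1 library left out, Pdgfra ranged from 0.58 to 1.28, Pdgfrb from 0.33 to 0.64, Kit from -1.11 to -0.40, Pdgfb from -1.50 to -0.12, Pdgfa from -0.26 to 0.30, Pdgfc from -0.46 to 0.046 and Kitl from -0.076 to 0.46.

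Over the whole table, 330 genes were called, 44 to 384 with 1 library left out (44 without WT replicate 1, 128 without WT replicate 3, 129 without Scl-/- replicate 2 and 162 without Scl-/- replicate 3) and 202 without replicate 2. The block gave 1768 calls, and 2062, 1122 and 1210 without replicate 1, 2 and 3. Of the pathway genes 5 were called, 1 to 5 with 1 library left out (1 without WT replicate 1, 2 without WT replicate 3, 2 without Scl-/- replicate 2 and 3 without Scl-/- replicate 3) and 3 without replicate 2. With the block 15 were called, and 19, 12 and 13 without replicate 1, 2 and 3. Fits with fewer libraries have fewer degrees of freedom, but some gave more calls than the full fit (384, 2062 and 19 above). The causes of these shifts were not tested. The ratio of Pdgfra to Kit kept its direction throughout, from 1.02 to 2.37 with 1 library left out. Of the 7 genes Pdgfc had the fewest reads, 51 to 146 per library, so counting error bears most on it.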
